A study of Mus musculus with 4 samples.

Results

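The 9 genes described here are listed for storing, carrying, converting and sensing vitamin A in the liver. They were taken as the rows of the deposited table named Lrat, Rbp4, Rdh11, Rdh16, Aldh1a1, Aldh1a7, Adh1, Cyp26a1 and Rarb, and all 9 were found among 21959 gene IDs. The study sequenced liver RNA of 4 samples, all wild-type and all with ACLF (acute-on-chronic liver failure), in which acute injury falls on a chronically diseased liver. The saline group holds 2 livers of ACLF mice given saline, and the baicalein group holds 2 livers of ACLF mice given baicalein, a plant flavone. No healthy liver was analysed here, and the labels state neither dose, timing, age nor sex, nor that each liver came from its own animal. The p-values therefore speak of the spread among these 4 samples alone, and that spread may be technical.

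Vitamin A reaches the liver as retinyl ester, and most of the body's store lies in lipid droplets of hepatic stellate cells, the pericytes of the sinusoid. LRAT esterifies retinol for storage, and retinol leaves the liver bound to RBP4, which hepatocytes secrete. Alcohol and retinol dehydrogenases interconvert retinol and retinal, aldehyde dehydrogenases such as ALDH1A1 oxidise retinal to retinoic acid, and CYP26 hydroxylases clear retinoic acid. Retinoic acid acts through the nuclear receptors RAR and RXR, and Cyp26a1 and Rarb are textbook targets of that signal.

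The promoters of Cyp26a1 and Rarb are shown first because both hold the element through which retinoic acid receptors are known to bind. The search was for 2 half-sites in the same orientation with 5 bases between them (the DR5 spacing), each half-site being the form AGGTCA, the form AGTTCA, the form GGGTCA or the form GGTTCA, on both strands. Windows ran from 250 bases before to 50 after each RefSeq start site in build GRCm38.p6. The 150 bases before the start are printed 5′ to 3′ on the gene's strand, with the half-sites in capitals; in Cyp26a1 the element lies on the opposite strand, so its half-sites read as their reverse complement. The Rarb stretch is chr14:16575477-16575626 (minus strand) and the Cyp26a1 stretch chr19:37697658-37697807 (plus strand).
Rarb: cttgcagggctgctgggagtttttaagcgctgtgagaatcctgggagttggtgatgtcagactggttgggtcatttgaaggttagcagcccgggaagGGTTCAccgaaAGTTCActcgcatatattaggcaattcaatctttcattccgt
Cyp26a1: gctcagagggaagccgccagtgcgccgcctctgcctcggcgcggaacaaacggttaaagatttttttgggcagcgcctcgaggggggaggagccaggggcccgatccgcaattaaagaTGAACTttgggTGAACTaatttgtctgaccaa
The element ran from -53 to -37 in Rarb and from -32 to -16 in Cyp26a1, counted from the start site. Such a DR5 was present in 31 of 27025 genes with a window (0.115%), in 2 of the 9 retinoid genes and in none of 42 other retinoid pathway genes with a window. Spacings of 1 base (0.263% of genes) and 2 bases (0.311%) gave no match in the 9; among the 42, a spacing of 1 base was found in Bco1, a carotenoid-cleaving enzyme gene, and a spacing of 2 bases in none. The 2 DR5 matches among the 9 lie in textbook targets of retinoic acid, so that count is no test of the 9 genes as a set. A match describes the letters in the window, and binding was not measured.

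Aldh1a1 and Aldh1a7 are shown next because they are close copies. The 100 bases before the start of each are printed with the positions where the copies differ in capitals. They are chr19:20601868-20601967 (plus strand) and chr19:20727557-20727656 (minus strand) of GRCm38.p6; RefSeq lists a further start for Aldh1a1 that is not shown.
Aldh1a1: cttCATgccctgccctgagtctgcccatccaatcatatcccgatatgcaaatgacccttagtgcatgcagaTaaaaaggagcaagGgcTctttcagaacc
Aldh1a7: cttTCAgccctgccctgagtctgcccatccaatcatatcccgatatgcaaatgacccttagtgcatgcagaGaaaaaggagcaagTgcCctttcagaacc
In these stretches 94 of 100 bases were the same, and over the 1503 coding bases the copies were 91.62% identical. The labels do not say how reads matching both copies were assigned, so the split of reads between them is uncertain.

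The counts summed to between 13976440 and 18731616 per liver, and reads fell on 14409 to 15530 genes per liver. Livers of the same group were further apart than sampling noise allows (chi-square per degree of freedom 23.4 for saline and 18.7 for baicalein), so all 4 were kept as separate samples. The livers expressed hepatocyte markers throughout, with Alb at 54510 ± 1914 CPM in saline and 81019 ± 9558 CPM in baicalein livers (CPM, the TMM-scaled count relative to library size; SD, n = 2 each). Alb was among the 2 of 10 hepatocyte markers that were higher in baicalein livers (edgeR adjusted p below 0.05). Another 2 were lower, and the median log2 fold change of the list was -0.03. Of all tested genes, 7.65% were higher and 7.90% lower. The groups differed in more than their treatment labels. The Y-linked genes Ddx3y, Kdm5d, Eif2s3y and Uty together had 820 and 836 counts in the saline livers against 2 and 1 in the baicalein livers, so in every value given here the treatment cannot be told apart from this difference. Skeletal muscle markers, led by Acta1 and Myh4, summed to 5224 CPM in saline 1 and 1404 CPM in baicalein 2 but to 1.24 CPM in saline 2 and 0.756 CPM in baicalein 1, where 6 of the 10 markers had no count in either liver.

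Of the 9 retinoid genes, 4 were higher and 2 lower in baicalein livers, and 3 did not pass. Lrat, Cyp26a1, Rdh16 and Adh1 rose, Aldh1a1 and Aldh1a7 fell, and Rbp4, Rdh11 and Rarb were the 3 others. Passing means an adjusted p below 0.05 in edgeR's quasi-likelihood test over all 12657 tested genes. In that test 15.5% of all genes passed, 7.65% as higher and 7.90% as lower. With scaling by library total alone the split over all genes was 1044 higher and 690 lower, against 968 and 1000 with TMM scaling, and the calls of the 9 genes were the same. The median log2 fold change was 0.59 over the 9 genes and 0.01 over all tested genes. CPM did not overlap between the groups for 7 of the 9, against 59.2% of all tested genes.

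**Figure D1:**
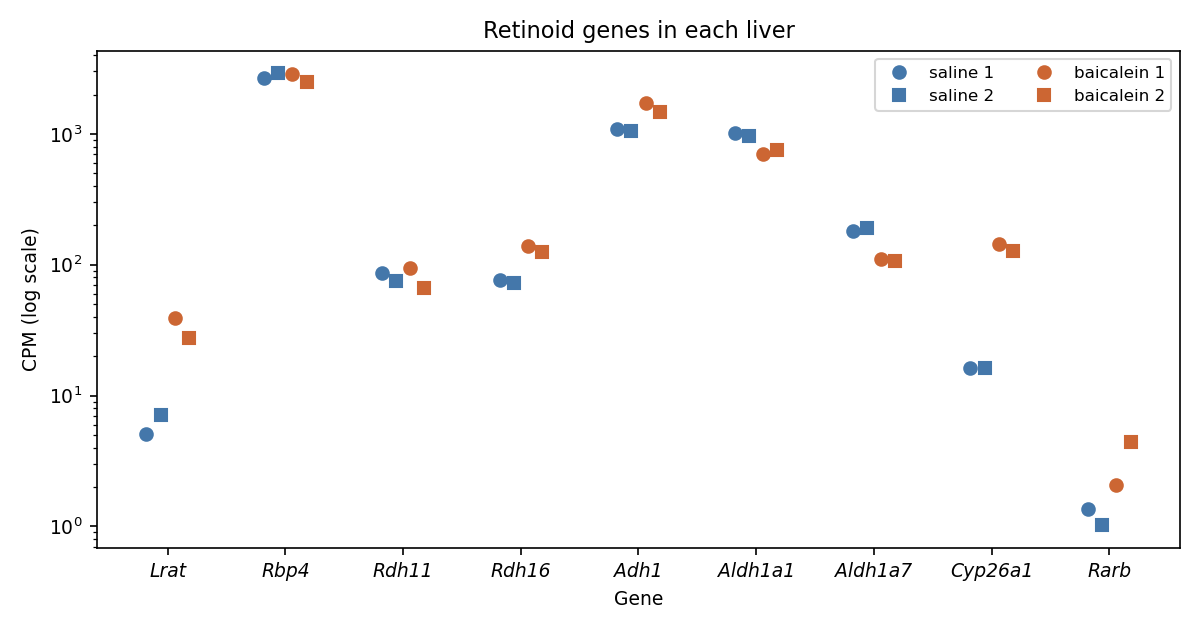
CPM of the 9 retinoid genes (log axis), with 1 point per liver: circles are livers numbered 1 and squares livers numbered 2, blue for saline and orange for baicalein. Lrat and Cyp26a1 lie well above the saline livers in both baicalein livers, whereas the 4 livers overlap for Rbp4 and Rdh11.

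Lrat (ENSMUSG00000028003, chromosome 3, 82799886 to 82811280 as the table gives it), the storage enzyme gene, had 87 and 98 reads in the saline livers and 568 and 552 in the baicalein livers. These equal 5.11 and 7.15 CPM against 39.1 and 27.5 CPM. Both baicalein livers lay above both saline livers, baicalein 1 being the highest of the 4. The log2 fold change was 2.44 (SE 0.26, edgeR adjusted p = 0.00452), a 5.44-fold higher level. Lrat was not called with the replicate number as a block in the fit (edgeR adjusted p = 0.0649). In saline 2 against baicalein 1, the livers almost free of muscle transcripts, the log2 difference was 2.45 (no test).

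Lrat rose beside other genes of stellate cells. Of 15 stellate cell markers 9 were higher and none lower, with a median log2 fold change of 1.04. Beside this and the marker counts below, 7.65% of all tested genes were higher and 7.90% lower. Dcn, a matrix proteoglycan gene, went from 67.3 ± 3.96 to 171 ± 2.14 CPM (SD, n = 2 each), and Ecm1, a secreted matrix protein gene, from 71.2 ± 4.56 to 148 ± 22.1 CPM. The marker Des, singled out after its values were seen, is also a muscle gene and followed the muscle transcripts, at 151 and 2.63 CPM with saline and 6.26 and 101 CPM with baicalein. The 14 markers without Des summed to 282 and 259 CPM in the saline livers and 674 and 609 CPM in the baicalein livers, a ratio of group means of 2.37. Lrat equalled 1.81% and 2.76% of that sum with saline and 5.79% and 4.52% with baicalein, groups that did not overlap. With 2 livers per group such a gap is common, as CPM did not overlap for 59.2% of all tested genes. In whole liver, more cells of a type cannot be told apart from more RNA per cell. Of the 8 tested markers of activated stellate cells and myofibroblasts, 1 was higher and none lower, and Col3a1 (186, 82.6, 105 and 250 CPM in saline 1, saline 2, baicalein 1 and baicalein 2) was highest in the livers with muscle transcripts. Other non-parenchymal lists moved with Lrat too: 8 of 10 sinusoidal endothelial and 10 of 10 Kupffer cell markers were higher. Of 6 tested bile duct markers 2 were lower and none higher, yet their median log2 fold change was 2.03, and the list summed to 71.9 and 65.3 CPM with saline and 31.2 and 137 CPM with baicalein, baicalein 2 being the highest. Summed, the endothelial and Kupffer lists went from 467 and 410 to 670 and 673 CPM and from 640 and 561 to 1079 and 921 CPM. Their part in the Lrat result was not tested.

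**Figure D2:**
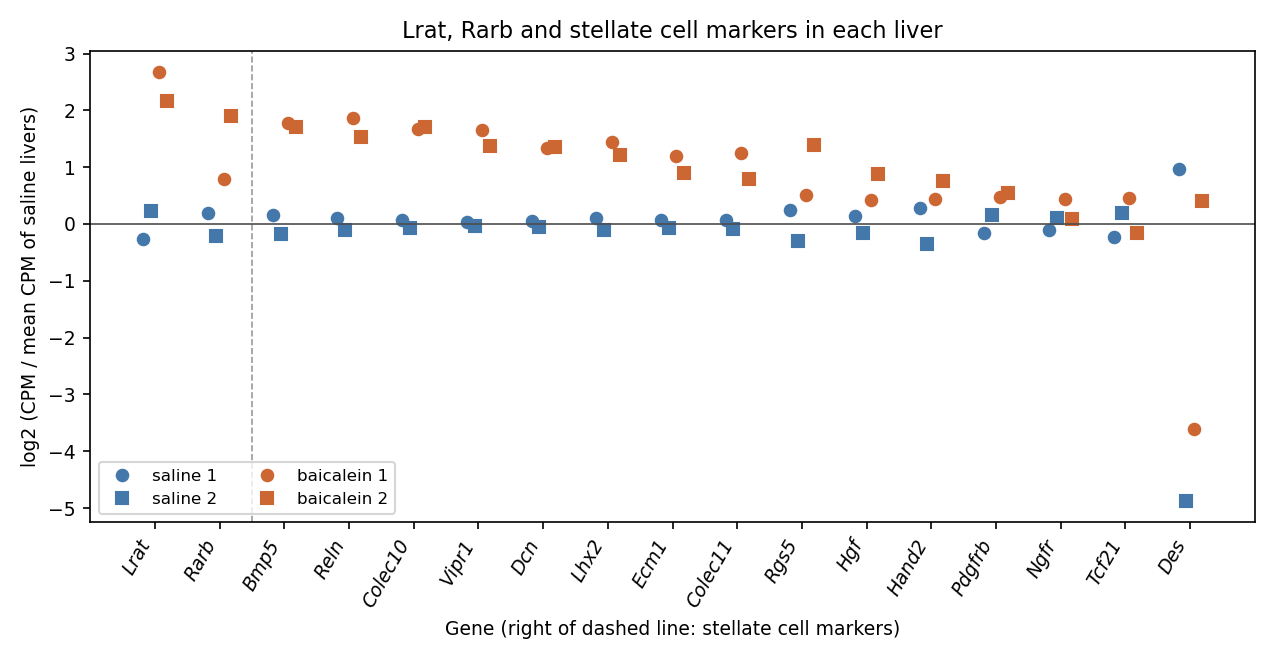
Level of Lrat, Rarb and the 15 stellate cell markers in each liver as log2 of CPM over the mean CPM of the saline livers; 0 is the saline mean. Lrat, at 39.1 and 27.5 CPM in the baicalein livers, stands farther above the saline mean than any stellate marker, and Des drops in the livers without muscle transcripts.

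Rbp4 (ENSMUSG00000024990, chromosome 19, 38105077 to 38113729), which encodes the plasma carrier of retinol, was the most abundant of the 9 per unit of gene length. It stood at 2682 and 2903 CPM in the saline livers and 2863 and 2492 CPM in the baicalein livers. The groups overlapped, with the highest and the second lowest liver in the saline group. Its log2 fold change was -0.06 (SE 0.12, edgeR adjusted p = 0.790). Ttr, the transthyretin gene whose product holds RBP4 in plasma, gave -0.08 (SE 0.12). Ttr was 1 of 6 tested pathway genes for uptake, transport and binding, and none of them passed. These included Stra6l, a liver receptor for RBP4 (-0.08, SE 0.11).

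Among enzymes between retinol and retinal, Rdh16 and Adh1 rose and Rdh11 did not pass. Rdh16 (ENSMUSG00000069456, chromosome 10, 127637021 to 127682434), a retinol dehydrogenase gene, went from 76.2 and 72.8 CPM to 139 and 126 CPM, with a clear gap between the groups. Its log2 fold change was 0.83 (SE 0.10, edgeR adjusted p = 8.74e-04). Adh1 (ENSMUSG00000074207, chromosome 3, 137966752 to 137996459), the main liver alcohol dehydrogenase gene, whose product oxidises ethanol and retinol, went from 1085 and 1048 CPM to 1721 and 1481 CPM. This log2 fold change of 0.59 (SE 0.11, edgeR adjusted p = 0.00939) was not called without saline 1 (adjusted p = 0.161) or saline 2 (0.234). Rdh11 (ENSMUSG00000066441, chromosome 12, 79221111 to 79239067), a retinal reductase gene, was at 86.8 and 75.8 CPM with saline and 94.5 and 66.5 CPM with baicalein. The baicalein livers were here the highest and the lowest of the 4, and the log2 fold change was -0.02 (SE 0.19, edgeR adjusted p = 0.970). It was 0.32 in saline 2 against baicalein 1 (no test).

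The neighbours of Rdh16 and Adh1 on their chromosomes did not move alike. In the retinol dehydrogenase cluster of chromosome 10, Rdh9 rose from 6.10 ± 0.271 to 24.7 ± 5.03 CPM (SD, n = 2 each; log2 fold change 2.01, SE 0.17, edgeR adjusted p = 1.34e-04). Rdh16f2 rose from 102 ± 2.64 to 292 ± 29.3 CPM (1.51, SE 0.11). Rdh7 gave -0.10 (SE 0.11, adjusted p = 0.629). The Rdh16 coding sequence is 96.32% identical to that of Rdh9, 96.74% to Rdh16f1 and 91.51% to Rdh16f2, and the table's Rdh16f1 overlaps Rdh9 and had no read in any liver, so values of single copies are uncertain. In the alcohol dehydrogenase cluster of chromosome 3, Adh4, whose product also oxidises retinol, fell from 130 ± 12.9 to 89.2 ± 5.67 CPM (-0.55, SE 0.11, edgeR adjusted p = 0.0106) beside the higher Adh1, a call lost without saline 2 (adjusted p = 0.109) or baicalein 2 (0.0730). Adh7 (0.27, SE 0.15) and Adh5 (-0.14, SE 0.11) did not pass. Adh1 shares at most 68.83% of its coding bases with these 3.

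**Figure D3:**
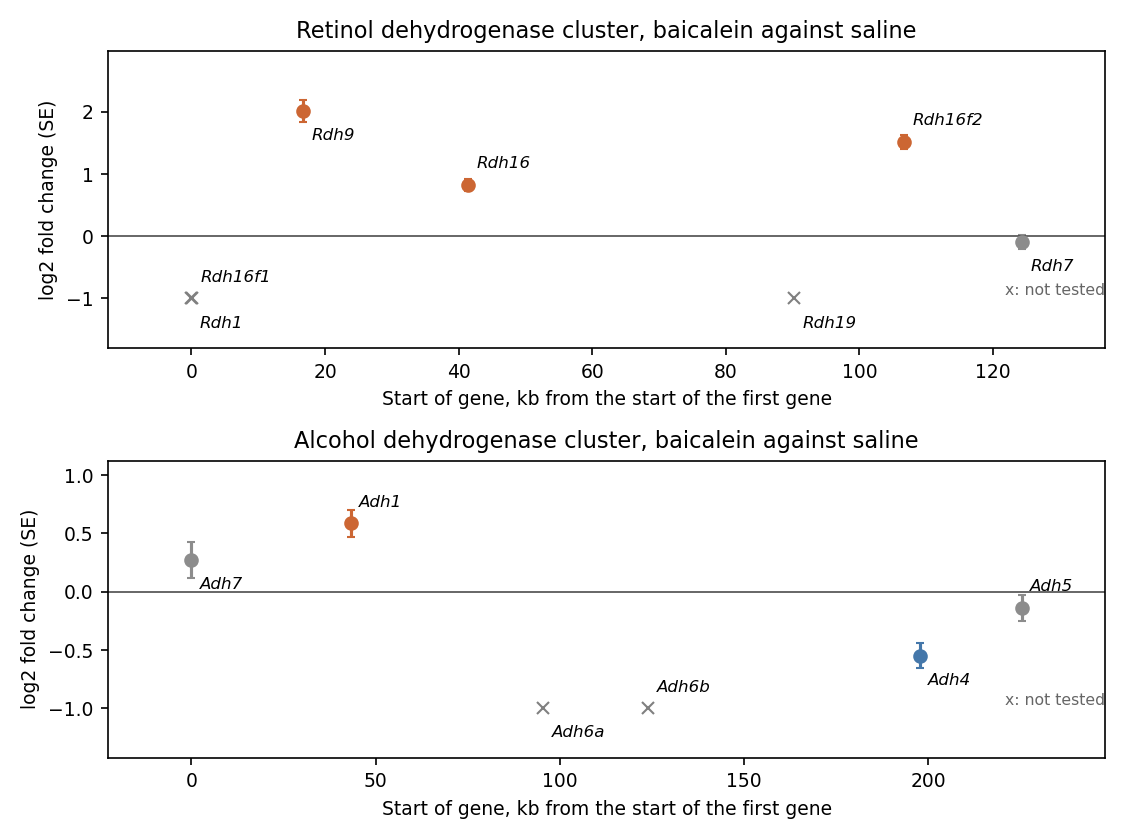
Log2 fold change, baicalein against saline, of genes in the retinol dehydrogenase cluster (top) and the alcohol dehydrogenase cluster (bottom) against distance in kb from the first gene; bars are SE, orange is higher, blue lower and grey did not pass. Crosses are genes with too few reads to test, placed below the others at no value. Rdh9, Rdh16 and Rdh16f2 lie above 0 and Rdh7 near it, and Adh1 and Adh4 lie on opposite sides of 0.

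Both ALDH1A genes were lower in baicalein livers. Aldh1a1 (ENSMUSG00000053279, chromosome 19, 20470079 to 20620829) was at 1019 and 967 CPM with saline and 704 and 759 CPM with baicalein, without overlap. The log2 fold change was -0.44 (SE 0.10, edgeR adjusted p = 0.0215) and was not called without saline 1 (adjusted p = 0.268) or saline 2 (0.234). Aldh1a7 (ENSMUSG00000024747, chromosome 19, 20670317 to 20704926), the neighbouring copy, was at 180 and 192 CPM with saline and 110 and 106 CPM with baicalein. Its log2 fold change was -0.78 (SE 0.10, edgeR adjusted p = 0.00105), and the baicalein livers were again the lower ones. Per gene length, the ratio of Aldh1a1 to Aldh1a7 FPKM was 2.37 and 2.11 in the saline livers and 2.68 and 2.99 in the baicalein livers. The aldehyde oxidase genes Aox3 and Aox1, listed at the step from retinal to retinoic acid, fell too. Aox3 went from 1452 ± 72.2 to 276 ± 10.2 CPM (SD, n = 2 each, log2 fold change -2.39, SE 0.11). Aox1 went from 142 ± 10.6 to 55.3 ± 0.747 CPM (-1.36, SE 0.10). Other genes tested at this step did not pass: Aldh8a1 gave -0.08 (SE 0.10, edgeR adjusted p = 0.678) and Aldh1a3 0.68 (SE 0.82, adjusted p = 0.646). Aldh1a2 was too low to test, with 4 and 5 reads against 6 and 52, baicalein 2 having the most.

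Cyp26a1 had the largest change of the 9. Cyp26a1 (ENSMUSG00000024987, chromosome 19, 37686246 to 37689984) had 277 and 223 reads with saline and 2088 and 2549 with baicalein, or 16.3 and 16.3 CPM against 144 and 127 CPM. The livers of each group lay close together and the groups far apart. The log2 fold change was 3.06 (SE 0.11, edgeR adjusted p = 6.29e-07), an 8.31-fold higher level, and it was 3.14 in saline 2 against baicalein 1 (no test). Cyp26b1, which encodes a second retinoic acid hydroxylase, rose from 1.67 ± 0.299 to 103 ± 17.1 CPM (SD, n = 2 each; log2 fold change 5.93, SE 0.19, edgeR adjusted p = 8.44e-06). Cyp26c1, the neighbour of Cyp26a1, stayed at or below 1.15 CPM in every liver (1.33, SE 0.68, adjusted p = 0.236). Per gene length, Cyp26a1 equalled 3.98% and 4.19% of the Aldh1a1 FPKM in the saline livers and 50.8% and 41.7% in the baicalein livers. The ratio of Cyp26a1 to Cyp26b1 FPKM was 23.4 and 30.1 with saline and 4.28 and 2.99 with baicalein.

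Rarb (ENSMUSG00000017491, chromosome 14, 5650540 to 6038924), the retinoic acid receptor beta gene, had the lowest level of the 9 per gene length. It had 23 and 14 reads with saline and 30 and 89 with baicalein, or 1.35 and 1.02 CPM against 2.06 and 4.44 CPM. Baicalein 2 stood well above baicalein 1, and both were above the saline livers. The log2 fold change of 1.45 (SE 0.47, edgeR adjusted p = 0.0725) did not pass. It was 0.79 without baicalein 2 (adjusted p = 0.493) and 1.88 without baicalein 1 (adjusted p = 0.0555). Baicalein 2 also had the highest Krt19, a duct and mesothelial keratin gene singled out after its values were seen (2.29, 1.24, 1.58 and 72.2 CPM in saline 1, saline 2, baicalein 1 and baicalein 2). Of the other tested bile duct markers, Krt7, Epcam and Cldn7 were also highest in baicalein 2. Sox9 (log2 fold change -1.16, SE 0.22) and Spp1 (-1.16, SE 0.11) were instead lower in both baicalein livers. The part of other cells in the Rarb value was not tested. Rarg, another receptor of the family, went from 6.14 ± 1.88 to 12.4 ± 2.82 CPM (SD, n = 2 each; 1.01, SE 0.26, edgeR adjusted p = 0.0468). That call was lost with scaling by library total (adjusted p = 0.0632) and without saline 2 (0.139), baicalein 1 (0.0698) or baicalein 2 (0.224), and adjusted p ran from 0.0190 to 0.224 over 10 alternatives. Rxra, encoding the main RXR of hepatocytes, gave 0.39 (SE 0.12, adjusted p = 0.0608), and passed with DESeq2 (0.00830), with scaling by library total (0.0207) and without baicalein 2 (0.0460), within a range of 0.00830 to 0.478 over 10 alternatives.

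Of 55 other genes of retinoid uptake, storage, conversion and signalling, 46 could be tested, of which 5 were higher, 7 lower and 34 did not pass (median log2 fold change -0.06). Over all tested genes 7.65% were higher and 7.90% lower, and with a liver left out the pathway counts were 3 to 4 higher and 4 to 7 lower, so these counts are given as a description. The 5 higher genes were Cyp26b1, Rdh9, Rdh16f2, Pnpla3 and Rarg. Pnpla3, which encodes a lipase acting on retinyl esters, was low throughout, at 1.22 ± 0.232 and 4.04 ± 0.417 CPM (SD, n = 2 each), and lost its call when any liver was left out (adjusted p 0.0506 to 0.0956). The 7 lower genes were Aox3, Aox1, Adh4, Rarres1, Dhrs9, Retsat and Dhrs4. Retsat, which encodes retinol saturase, stood at 290 ± 28.7 CPM with saline and 112 ± 3.46 CPM with baicalein (-1.37 on the log2 scale, SE 0.11). Rarres1, a gene named for its response to retinoic acid, was lower as well, at 110 ± 14.3 and 23.3 ± 3.66 CPM (-2.24, SE 0.15, edgeR adjusted p = 1.28e-04). It was the 1 called gene among 6 listed as inducible by retinoic acid, of which Tgm2 (0.30, SE 0.10) and Fgf21 (-1.93, SE 0.75) had the smallest p of those that did not pass. Fgf21 rested on few reads and gave -3.54 without baicalein 1 and -1.12 without baicalein 2. Tgm2 passed with DESeq2 (adjusted p = 0.0451) and with scaling by library total (0.0482). Dhrs4 and Dhrs9, genes of short-chain dehydrogenases acting on retinoids, gave -0.56 (SE 0.10) and -1.41 (SE 0.35). Dhrs4 was not called without saline 2 (adjusted p = 0.0608), nor Dhrs9 without saline 1 (0.159), saline 2 (0.121) or baicalein 2 (0.147). By step, 2 of 4 tested genes from retinal to retinoic acid were lower and none higher, and between retinol and retinal 2 of 14 were higher and 4 lower.

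**Figure D4:**
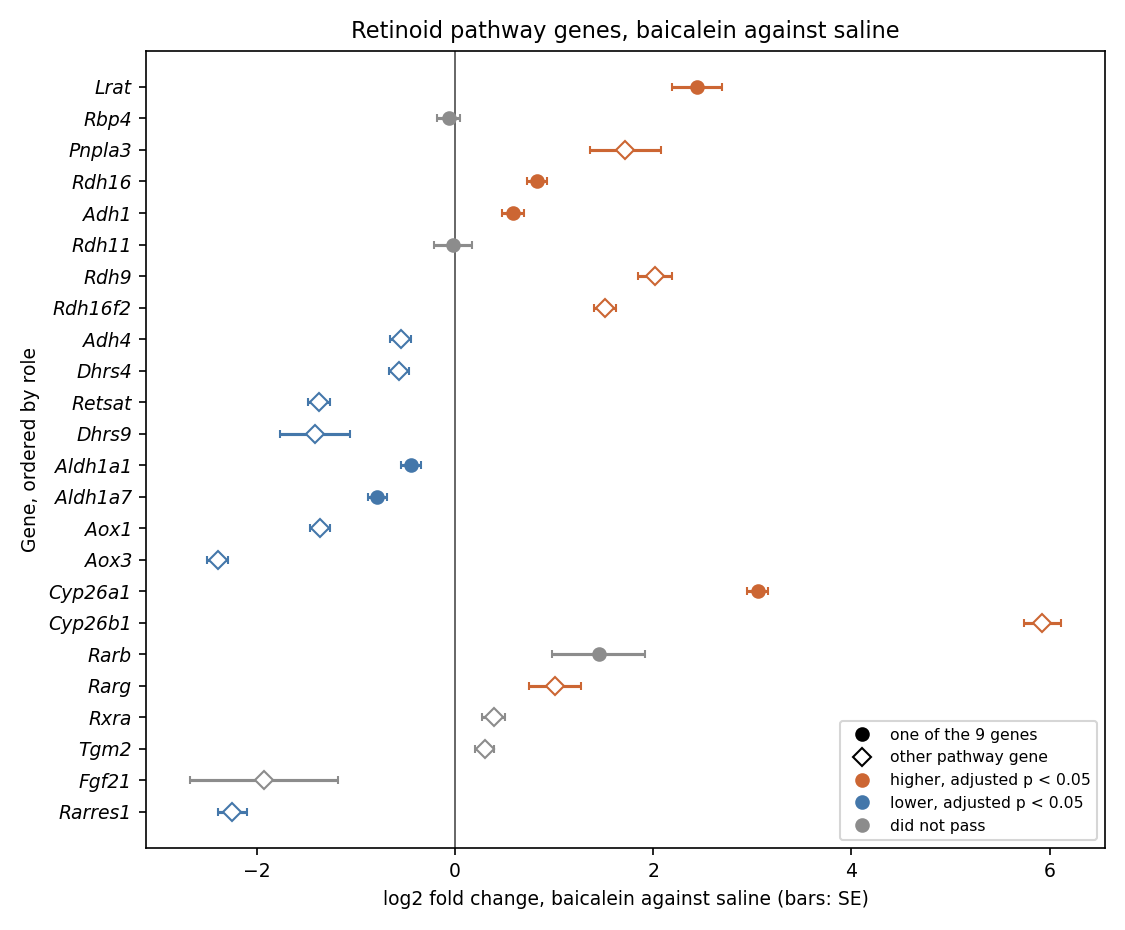
Log2 fold change with SE, baicalein against saline, of the 9 genes (filled circles) and of other pathway genes (open diamonds). The diamonds are the pathway genes that passed and the 3 of smallest p that did not. Genes are ordered from storage at the top to retinoic acid response at the bottom. Cyp26a1 and Cyp26b1 lie farthest to the right at 3.06 and 5.93, and the genes Aldh1a1, Aldh1a7, Aox1 and Aox3 all lie left of 0. Aldh8a1 and Aldh1a3, tested at the same step as these, did not pass and are not drawn.

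The authors' table also marks 97 genes with the KEGG pathway of retinol metabolism, 7 of the 9 among them, Rbp4 and Rarb being the others. Of 77 tested, 28 were higher, 25 lower and 24 did not pass (median log2 fold change 0.09). Beside this and the counts below, 7.65% of all tested genes were higher and 7.90% lower. Cytochrome P450 genes other than Cyp26 made up 18 of the 28 higher and 8 of the 25 lower. UDP-glucuronosyltransferase genes made up 3 and 8. In the same livers all 11 listed genes of male-biased liver expression were lower and all 10 of female-biased expression higher. The clock list had 8 of 12 higher and 3 lower. The Y-linked reads divide the livers exactly as treatment does, so the part of sex in the retinoid values cannot be told apart from treatment. The part of clock time was not tested.

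The order of levels per gene length differed between the groups in the place of 1 gene, Cyp26a1. In saline livers mean FPKM ran Rbp4 (2021 ± 140.1, SD, n = 2), Adh1 (464 ± 5.10), Aldh1a1 (195 ± 4.65), Aldh1a7 (87.5 ± 5.32), Rdh11 (22.9 ± 1.89), Rdh16 (11.6 ± 0.225), Cyp26a1 (7.98 ± 0.101), Lrat (1.12 ± 0.276) and Rarb (0.219 ± 0.0403). No 2 neighbours in that order overlapped between livers. In baicalein livers Cyp26a1, at 70.0 ± 1.90 FPKM, stood above Aldh1a7 at 53.7 ± 1.85 FPKM. The remaining genes kept their order, and Rdh11 (23.8 ± 4.49 FPKM) and Rdh16 (21.8 ± 0.173 FPKM) overlapped. Rbp4 made up 70.7% and 73.0% of the summed FPKM of the 9 in the saline livers and 66.0% and 65.5% in the baicalein livers.

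Genes whose pattern over the 4 livers was most like each of the 9 were found by the root mean square distance of mean-centred log2 CPM. Nearest to Lrat were Lepr, the leptin receptor gene (distance 0.0889), and Cyp7a1, the rate-limiting enzyme gene of bile acid synthesis (0.146). Cyp26a1 was nearest to Atp6v0d2 (0.109) and Nipal1 (0.174), and Rarb to Grb10 (0.0424) and Abr (0.0604). Rbp4 was nearest to Rdh13 (0.00309), itself a retinol dehydrogenase gene, and Msantd2 (0.00459). Adh1 was nearest to C1qa (0.00766) and Acy1 (0.00955), and Rdh16 to Slc13a3 (0.0169) and Enoph1 (0.0194). Aldh1a1 was nearest to Tmem82 (0.00876) and Btg2 (0.00942), Aldh1a7 to Nek6 (0.0100) and Ugt3a1 (0.0193), and Rdh11 to Ndufa11 (0.0343) and Nmnat3 (0.0348). With 4 livers in 2 groups, many genes share such a pattern, and these names describe these samples only.

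**Figure D5:**
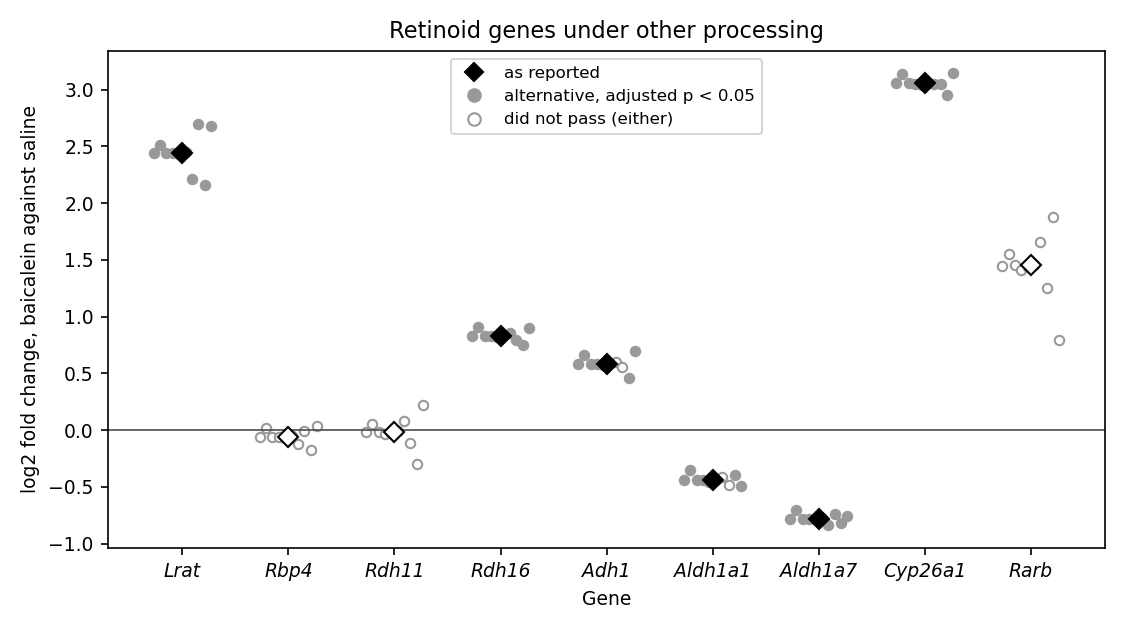
Log2 fold change of the 9 genes as reported (black diamonds) and under 10 other fits (grey circles), filled where adjusted p was below 0.05. Fits with a block are not drawn, among them the planned block for replicate number, in which Lrat and Aldh1a1 were not called. Lrat, Rdh16, Aldh1a7 and Cyp26a1 are filled in all 10, Adh1 and Aldh1a1 in 8, and Rbp4, Rdh11 and Rarb in none.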

How the data were processed

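RNA from 4 mouse livers was measured (2 saline, 2 baicalein). Per the labels' protocols, libraries were made from total RNA with a SMARTer mRNA kit. The authors deposited, for each gene and liver, a whole-number read count and an FPKM value (checked on the 9 genes, the FPKM equals the count over gene length and library total). Per the submitters' processing notes the build was mm10; for the aligner and counter, nothing is given in the sources read. GENCODE M21, an annotation on mm10, shares 21902 gene IDs with the table, and 565 of them had the table's start and end. None of the 9 genes did, so gene positions are printed as the table gives them and promoters with their RefSeq build. For Rarb the table gives the plus strand, whereas its printed promoter lies on the minus strand and far from the table's position. Table positions and printed promoter positions therefore cannot be read on the same scale. Coding identity came from GENCODE M21 transcripts.

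Columns were tied to livers by title. Genes were filtered with filterByExpr (12657 of 21959 left), scaled by TMM (factors 0.963 to 1.07) and fitted in edgeR 4.0.16 under R 4.3.3 (quasi-likelihood test with robust dispersion, baicalein against saline, two-sided, Benjamini-Hochberg over all tested genes, threshold 0.05). A gene that did not pass is not shown to be unchanged. An exact permutation test of 2 against 2 cannot give a two-sided p below 0.333, so p-values rest on spread shared across genes. FPKM served only to compare levels between genes. A count of 3, the limit that a count of 0 allows, equals 0.160 to 0.215 CPM by library total (without TMM factors) and covers counting error only.

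Members and lists were chosen with earlier results of these data known. Named were the 9 genes, each pathway gene that passed, the 3 of smallest p that did not, up to 2 genes per marker list by mean CPM, and for each of the 9 the 2 nearest patterns among genes with mean CPM of at least 5 (offset 0.5 CPM, predicted genes left out). Outside that rule, neighbours of the 9 on their chromosomes are named, as are further bile duct markers. Ttr, Stra6l, Aldh1a2, Aldh1a3, Aldh8a1 and Bco1 were chosen from the pathway list after their values were seen. Alternatives were median-of-ratios factors, library total scaling, DESeq2 1.42.0, limma-voom (limma 3.58.1), omitting the low-count filter or replacing it by mean CPM of 1 or more, a block for replicate number, and omitting each liver in turn. Crosswise pairs and saline 2 against baicalein 1 alone were added after the data were seen.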

Additional observations from a re-analysis of the deposited data

How the results depend on the processing

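Lrat, Rdh16, Aldh1a7 and Cyp26a1 kept their direction and call under 10 alternatives (2 scalings, DESeq2, limma-voom, 2 filters and 4 livers left out in turn), with highest adjusted p of 0.0230, 0.0147, 0.0148 and 9.02e-05. Rbp4 and Rdh11 turned positive with scaling by library total (log2 fold changes 0.017 and 0.0574), and with a liver left out ranged from -0.18 to 0.0388 and from -0.30 to 0.22, never passing. With each liver left out, calls ranged over 521 to 665 higher and 535 to 663 lower over all genes, 3 to 4 higher and 1 to 2 lower among the 9 genes, and 3 to 4 higher and 4 to 7 lower among the other pathway genes; those fits have fewer samples and lone livers are taken to vary like the others.

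Same-numbered livers deviated in opposite directions (correlation -0.771 over 12657 genes). The livers with muscle transcripts, saline 1 and baicalein 2, bear different numbers, so this correlation cannot show whether the numbers pair livers. The labels state no pairing. With the replicate number as a block, 531 genes were higher and 601 lower, and among the 9 genes 3 were higher and 1 lower; Lrat (adjusted p = 0.0649) and Aldh1a1 (0.0824) were not called. With crosswise pairs as a block, 1809 genes were higher and 1689 lower, and among the 9 genes 5 and 2. At 14 to 98 reads per liver in their lower group, Rarb and Lrat carry the most counting error of the 9.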
